A study of Mus musculus with 8 samples.

Results

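Open chromatin was examined at 10 mouse genes of DLK-JNK axon injury and stress signalling: Map3k12, Map3k13, Map2k4, Map2k7, Mapk8, Mapk9, Mapk10, Sarm1, Atf4 and Ddit3. The genes were chosen by name for their place in the pathway, with earlier results of these data known. Every ATAC-seq peak that overlapped one of them or the 10 kb on either side was taken. This gave 659 of the 1005430 peaks in all 8 peak lists. Peaks that shared at least 1 bp across lists were merged into regions, and 123 of 189914 regions belonged to these genes. ATAC-seq marks open DNA by the places where a transposase can insert sequencing adapters. All libraries came from adult C57BL/6J mice of both sexes whose optic nerve was crushed (ONC). AAV2 carrying GFP (3 libraries), Ezh2 (3 libraries) or Ezh2-Y726D (2 libraries) was injected into the vitreous 2 weeks before ONC, and retinal ganglion cells (RGCs) were sorted 3 days after it, with 50000 cells in each library. Ezh2 is the histone methyltransferase of the Polycomb complex PRC2, and Ezh2-Y726D is a catalytically dead form of it. RGCs were sorted as living cells positive for CD90.2 (Thy1), a surface protein that T cells also carry. There was no uninjured group, so every library had received both virus and crush. The labels do not say whether libraries of a group came from separate animals, so p-values measure the spread between libraries, which may be technical.

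DLK (Map3k12) and LZK (Map3k13) are kinases of the axon that sense injury and start a relay. They phosphorylate the kinases MKK4 (Map2k4) and MKK7 (Map2k7), which activate the c-Jun N-terminal kinases JNK1, JNK2 and JNK3 (Mapk8, Mapk9 and Mapk10). After optic nerve injury this relay is known to act in both the death of RGCs and their regenerative response. Sarm1 is an NAD-cleaving enzyme that executes axon degeneration, and Atf4 and Ddit3 (CHOP) are transcription factors of the integrated stress response.

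The promoters were examined first for sequence. The RefSeq table of GRCm38.p6 lists 15 promoters for these genes, each 250 bases before the start and 50 bases from it. Of these, 11 lay in a region with a peak in all 8 lists and 4 in no region. Both strands were searched for the AP-1 motif TGANTCA, the cAMP response element TGACGTCA and the C/EBP-ATF element TGATGNAA, to which factors downstream of JNK and Atf4 can bind. The AP-1 motif occurred in 2 of the 15 promoters (7.81% of all 32851 promoters in the table), the cAMP response element in 1 (1.79% of all) and the C/EBP-ATF element in 2 (3.97% of all). A match is a string of letters and does not show binding. The 4 sequences that follow are those of Mapk10 and Ddit3, whose promoters were open in all 8 lists and held a motif, of Map3k13, which held a motif at a start that no region reached, and of Sarm1, whose start region differed most between Ezh2 and GFP. Each is written 5′ to 3′ on the strand of its gene, and capitals mark the motif (the Sarm1 promoter holds none of the 3).
Mapk10 (chr5:103211285-103211584, minus strand, cAMP response element): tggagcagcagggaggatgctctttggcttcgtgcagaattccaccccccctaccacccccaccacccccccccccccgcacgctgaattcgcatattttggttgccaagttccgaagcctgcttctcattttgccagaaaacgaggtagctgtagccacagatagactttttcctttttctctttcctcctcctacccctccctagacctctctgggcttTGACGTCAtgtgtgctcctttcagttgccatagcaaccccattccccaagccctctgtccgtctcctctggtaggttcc
Ddit3 (chr10:127290543-127290842, plus strand, AP-1): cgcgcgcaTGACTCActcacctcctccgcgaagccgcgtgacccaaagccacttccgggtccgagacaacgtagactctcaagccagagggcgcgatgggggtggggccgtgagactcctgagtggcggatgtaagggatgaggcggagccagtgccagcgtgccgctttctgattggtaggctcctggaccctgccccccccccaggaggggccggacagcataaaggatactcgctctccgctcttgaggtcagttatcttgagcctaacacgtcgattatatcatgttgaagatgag
Map3k13 (chr16:21891719-21892018, plus strand, C/EBP-ATF element read on the other strand): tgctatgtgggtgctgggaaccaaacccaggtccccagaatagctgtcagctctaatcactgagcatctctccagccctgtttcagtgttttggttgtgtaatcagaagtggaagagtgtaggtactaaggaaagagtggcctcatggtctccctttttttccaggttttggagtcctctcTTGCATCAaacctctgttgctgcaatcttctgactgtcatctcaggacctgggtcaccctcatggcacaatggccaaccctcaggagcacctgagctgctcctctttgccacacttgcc
Sarm1 (chr11:78497705-78498004, minus strand): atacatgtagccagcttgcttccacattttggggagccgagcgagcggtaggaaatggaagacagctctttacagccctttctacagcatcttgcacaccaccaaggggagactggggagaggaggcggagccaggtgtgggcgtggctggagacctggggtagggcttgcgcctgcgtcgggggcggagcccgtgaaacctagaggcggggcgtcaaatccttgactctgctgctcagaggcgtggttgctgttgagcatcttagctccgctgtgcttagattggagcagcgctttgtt

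The lists held from 112939 to 135895 peaks, and they give no read numbers, so the sequencing depth is unknown. A marker was counted where a peak lay 1 kb or less from an end of the gene. Of 10 RGC markers, 9 to 10 had a peak in every list, and of 10 Müller glia markers 9 did. Rod markers had a peak for 10 genes in each GFP list, 8 to 9 in the Ezh2 lists, and 7 and 10 in the Ezh2-Y726D lists. Markers of microglia and macrophages had a peak for 5 to 8 of 10 genes with GFP, for 7 to 8 with Ezh2 and for only 2 in either Ezh2-Y726D list. For T cells the numbers were 7 to 10 of 10, 10 of 10 and 3 of 10. Peaks at Cx3cr1, C1qb, Ptprc, Cd2, Cd3g, Cd8a and Lat were found with GFP and with Ezh2 in every list but never with Ezh2-Y726D, whereas P2ry12 had one with GFP and with Ezh2-Y726D in every list but never with Ezh2, and Aif1 had none in any list. Cd3d, Cd3e and Cd4 had a peak in every list, and C1qc in every list but that of GFP replicate 1. The Ezh2-Y726D libraries therefore stood apart in the number of immune cell markers with a peak, though not at each marker. The part of this in any result below was not tested. In bulk libraries, fewer cells with a region open and less opening per cell cannot be told apart. Of 13 regions at the Ezh2 gene itself, 3 were specific to the Ezh2 lists and found in each of them, and 0 were open with Ezh2-Y726D in both libraries and with GFP in none, so the peaks gave no check of the Ezh2-Y726D label.

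Regions at these genes were shared between libraries about as widely as regions elsewhere. Of the 123 regions, 48 (39%) had a peak in all 8 lists, 52 in 2 to 7 lists and 23 (18.7%) in 1 list. The shares over the 189914 regions of the genome were 36.6% for all lists and 17.2% for 1 list. Median width was also similar, at 554 bp for the regions of these genes and 559 bp for all regions. Mapk10, the longest of the genes at 304 kb, held 43 regions, Map3k13 held 23, Mapk8 held 15 and Map2k4 held 13. Mapk9 and Sarm1 held 8 each, Atf4 held 5, Map3k12 and Map2k7 held 3 each and Ddit3, which spans 5.5 kb, held 2.

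The number of peaks at the 10 genes did not separate the groups. GFP lists had 81, 71 and 83 peaks, Ezh2 lists 87, 83 and 86, and Ezh2-Y726D lists 83 and 85. Means were 78.3 ± 6.43 (SD, n = 3), 85.3 ± 2.08 (n = 3) and 84 ± 1.41 (n = 2). The Ezh2 mean was 7 peaks above GFP (exact permutation test, two-sided, p = 0.2). The excess was 5.67 for Ezh2-Y726D over GFP (exact p = 0.5) and 1.33 for Ezh2 over Ezh2-Y726D (exact p = 0.5). With so few libraries no p below 0.1 can be reached. Per 100000 peaks of a list, Ezh2 and GFP differed by 0.766 (exact p = 0.7). Without GFP replicate 2 Ezh2 exceeded GFP by 3.33 (exact p = 0.3), Ezh2-Y726D did so by 2 (exact p = 0.667), and with lists cut to equal length these values were 0.333 and 1 (exact p = 1 and 0.9).

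To compare heights between libraries, each peak was ranked by its fold over the local background within its own list, as a percentile from 0 to 100. Regions with a peak in all lists were compared on the normal scores of these percentiles with limma, and a region was called at an adjusted p under 0.05. A region was called gained where every library of the first group had a peak and no library of the second did, and lost in the reverse case. In Ezh2 against GFP, 0 of the 48 tested regions ranked higher and 1 ranked lower, where 0.735% and 1.38% of 69493 regions did. At an unadjusted p under 0.05, limma placed 4 higher and 1 lower, and 19.1% of all regions passed that threshold in one direction or the other. Of the 123 regions, 5 were gained and 2 lost in this comparison, with 2.72% and 1.68% of all regions as the background. In Ezh2-Y726D against GFP, 0 ranked higher and 1 ranked lower, beside 2.45% and 3.77% of all regions. Here 6 were higher and 4 lower at an unadjusted p under 0.05, beside 23.5% of all regions in both directions together. In that comparison 4 were gained and 4 lost, beside 4.77% and 4.72%. Between Ezh2 and Ezh2-Y726D, 2 ranked higher in Ezh2 and 1 lower, beside 6.25% and 5.62%, while 6 were gained in Ezh2 and 5 lost, beside 8.96% and 6.14%. Unadjusted, 5 were higher and 5 lower, beside 28.4% in all. These counts are small and lay near the background of all regions. The median difference over the 48 regions was 0.08, 0.03 and 0.02 normal-score units in the 3 comparisons, against 0.03, 0.02 and 0.01 over all regions tested. Both comparisons with GFP use the same 3 GFP libraries. The libraries of the 2 groups did not overlap in percentile at 6, 23 and 16 of the 48 regions (12.5%, 47.9% and 33.3%). Over all regions tested the shares were 24.2%, 41.5% and 47.4%. They are the background for each separation of 2 groups named below. The share of regions at which 1 group lay apart from both others was not counted.

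**Figure D1:**
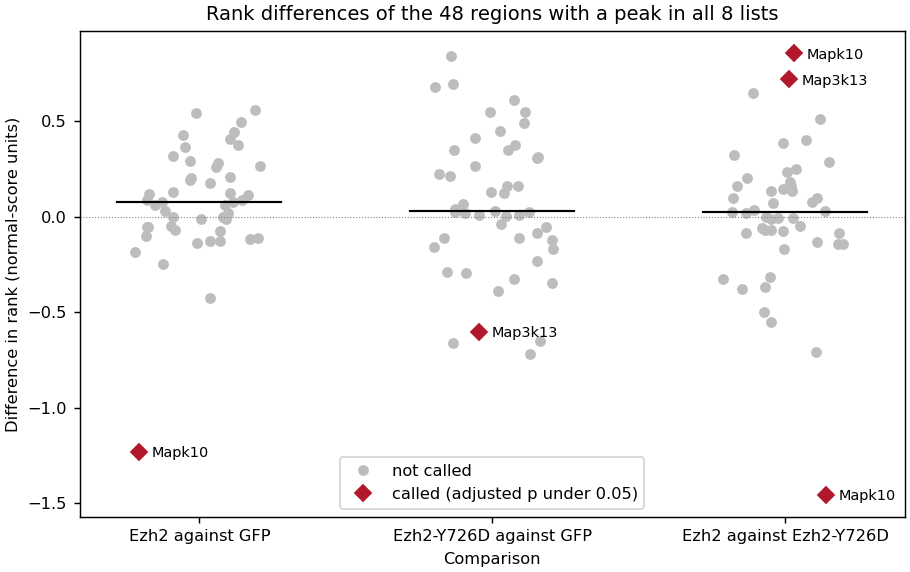
Differences in rank, in normal-score units (y axis), of the 48 regions with a peak in all 8 lists, for each of the 3 comparisons (x axis, points spread sideways for display). Grey points were not called, red diamonds were called by limma and carry their gene, and black lines mark the medians of 0.08, 0.03 and 0.02. Called regions belong to Mapk10 and Map3k13 alone, which hold 13 and 10 of the 48 regions.

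At the starts of the genes, no group difference was called. Start regions of 9 genes had a peak in all 8 lists, and limma called 0 of them in any of the 3 comparisons, with 1 (Sarm1), 0 and 0 at an unadjusted p under 0.05, a threshold that 19.1%, 23.5% and 28.4% of all tested regions passed. None was called under any other ranking, filter or omission of a library that was run. Heights differed much more between genes than between groups. Map2k4 was the most open, with a mean percentile of 96.5 over the 8 lists, above 78.7% of the start regions of protein-coding genes. It was followed by Map2k7 (87.5), Mapk8 (86.3), Mapk9 (85.5), Sarm1 (85.5), Atf4 (78.8), Map3k12 (72), Mapk10 (64) and Ddit3 (56.8). The last 2 lay above 16.8% and 11.7% of all start regions, whose median percentile was 88.1. Over the 8 lists, neighbours in this order overlapped in their ranges except Map2k4, which lay above Map2k7 throughout, and Atf4, which lay above Map3k12 throughout. As a reference, 69.9% of 17492 protein-coding genes had a region within 1 kb of the first listed start and 62.5% had one with a peak in all 8 lists.

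**Figure D2:**
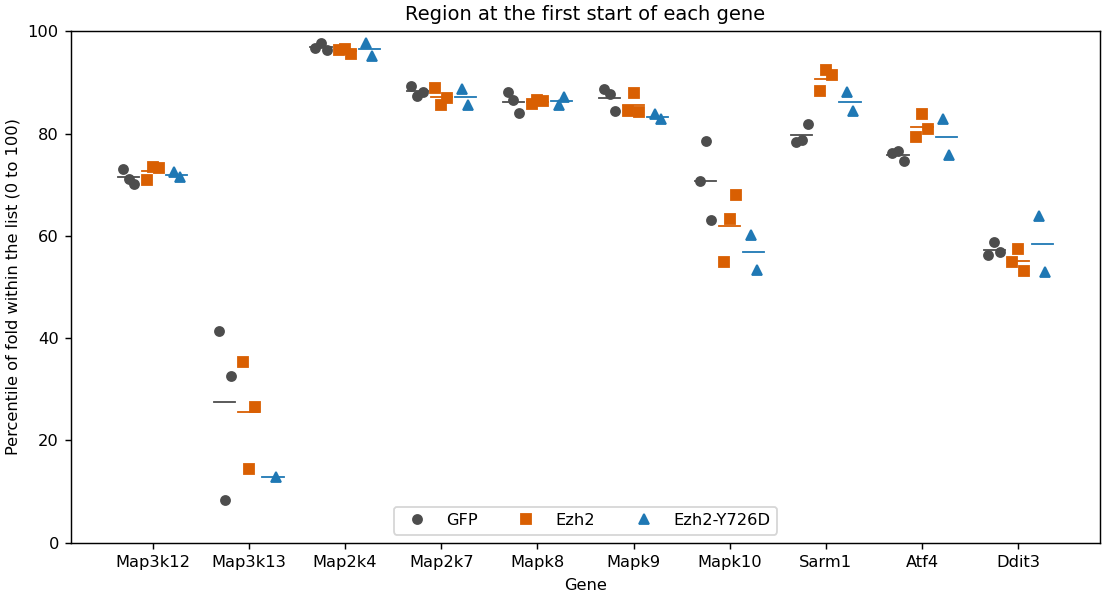
Percentile of fold within the list (y axis, 0 to 100) of the region at the first listed start of each gene (x axis), 1 point per library and a line at each group mean (3 GFP, 3 Ezh2 and 2 Ezh2-Y726D libraries). Map2k4 lies above 95 in every library, Ddit3 between 53 and 63.9, and Map3k13, whose nearest region has no peak in 1 Ezh2-Y726D list, between 8.26 and 41.4.

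Among the injury-sensing kinases, DLK was open at both of its listed starts in every library. Map3k12 lies on chr15:102497647-102517004. The region at its first start (chr15:102516391-102519043), which also holds the start of the neighbouring gene Tarbp2, had percentiles of 73.1, 71.2 and 70.2 in GFP, 71, 73.5 and 73.3 in Ezh2, with 72.4 and 71.5 in Ezh2-Y726D. The groups overlapped, and Ezh2 differed from GFP by 0.03 normal-score units (SE 0.11, adjusted p = 0.921). Its second start lay in a taller region (chr15:102510158-102511492), with 89.2, 88.3 and 84 in GFP, 83.2, 87.4 and 84.5 in Ezh2, with 84 and 79.5 in Ezh2-Y726D. Here too the groups overlapped. A region 8.21 kb upstream of the first start (chr15:102524791-102525634) had percentiles of 76.5 to 81.7 in GFP, 79.2 to 91.9 in Ezh2, with 93.1 and 89.5 in Ezh2-Y726D. Both Ezh2-Y726D libraries were above all GFP libraries there, but the difference of 0.55 (SE 0.20, adjusted p = 0.148) was not called. Separation of these 2 groups, in one direction or the other, occurred at 41.5% of all tested regions.

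At LZK, the only listed start lay in no region, and other starts of the gene were not examined. Map3k13 lies on chr16:21824056-21933439, and the only start listed for it, at 21891969, is inside that span. The nearest region (chr16:21890220-21891139) ended 830 bp from this start and had percentiles of 41.4, 8.26 and 32.6 in GFP, 35.4, 14.4 and 26.6 in Ezh2, and 12.9 in Ezh2-Y726D replicate 2. It had no peak in Ezh2-Y726D replicate 1. Farther upstream inside the gene, chr16:21845598-21846760 had a peak in all 8 lists, at percentiles of 94.1 to 97.6. That region lay 45.8 kb from the listed start, holds a start of the gene Gm26744 and was not called in any comparison.

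Inside Map3k13, 1 region ranked lower with Ezh2-Y726D than in either other group. At chr16:21869830-21870515, 21.8 kb upstream of the listed start, percentiles were 59.5, 64.4 and 57.7 in GFP, 66.4, 68.6 and 59.9 in Ezh2, with 39.4 and 34.4 in Ezh2-Y726D. Both Ezh2-Y726D libraries lay below the other 6, and the GFP and Ezh2 ranges overlapped. Ezh2-Y726D was lower than GFP by -0.60 normal-score units (SE 0.14, adjusted p = 0.0447), and Ezh2 was higher than Ezh2-Y726D by 0.72 (SE 0.14, adjusted p = 0.0166). The first of these calls was lost in 13 of 16 alternatives (adjusted p from 0.0197 to 0.184), including the omission of any of the 8 libraries. The second was lost without Ezh2-Y726D replicate 1 (adjusted p = 0.0628) or replicate 2 (adjusted p = 0.0904), with a range of 0.00786 to 0.0904 over its 16 alternatives. Ezh2-Y726D libraries had fewer immune markers with a peak, as given above, and the part of that in this region was not tested.

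Several weaker regions of Map3k13 were gained or lost in a comparison. One at chr16:21913359-21913723 had a peak in all Ezh2 lists (58.3, 47.2 and 70.9), in GFP replicate 3 (23.4) and in neither Ezh2-Y726D list, and counted as gained in Ezh2 against Ezh2-Y726D. Conversely, chr16:21927865-21928215 had a peak in all GFP lists (31.3, 31.5 and 57.1), in Ezh2 replicate 1 (41.1) and in no Ezh2-Y726D list, which made it lost against GFP. At chr16:21937147-21937570, outside Map3k13 and within Tmem41a, only the Ezh2-Y726D lists had a peak (54.7 and 24.2). The first 2 of these regions kept their calls under a stricter peak threshold (−log10 q of at least 5), and the Tmem41a region did not.

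The middle kinases were steady at their first listed starts. MKK4 is encoded by Map2k4 on chr11:65688244-65788359, and its start region (chr11:65787342-65788742) had percentiles of 96.7, 97.7 and 96.4 in GFP, 96.3, 96.6 and 95.5 in Ezh2, with 97.8 and 95.1 in Ezh2-Y726D. MKK7 is encoded by Map2k7 on chr8:4238740-4247897, and its start region (chr8:4237880-4239600) had 89.2, 87.4 and 88.1, then 88.9, 85.6 and 86.9, then 88.7 and 85.5 in the same order. At both of these start regions all groups overlapped. Differences from GFP were -0.11 (SE 0.14) and -0.04 (SE 0.16) at Map2k4 and -0.05 (SE 0.12) and -0.05 (SE 0.13) at Map2k7, for Ezh2 and Ezh2-Y726D. The second listed start of Map2k4 was in a lower region (chr11:65745585-65746621) with percentiles of 21.7 to 49.3 in GFP, 29 to 59.5 in Ezh2, with 59.7 and 49.5 in Ezh2-Y726D. Both Ezh2-Y726D libraries lay above all GFP libraries there, and these groups separated at 41.5% of all tested regions. Neither the difference of 0.55 for Ezh2-Y726D (SE 0.30, adjusted p = 0.305) nor that of 0.41 for Ezh2 (SE 0.27, adjusted p = 0.459) was called by limma. No peak lay over the second listed promoter of Map2k7, which held both an AP-1 and a C/EBP-ATF motif.

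Away from its start, Map2k4 had 4 regions that were gained or lost in at least 1 comparison. A peak at chr11:65716876-65717407 was found in all GFP lists (82.1, 69.7 and 69.5), in Ezh2 replicates 1 and 3 (59.9 and 23.8) and in no Ezh2-Y726D list. One at chr11:65794308-65795298, 6.44 kb upstream of the first start, was found in all Ezh2 lists (69.8, 80.5 and 80.2), in GFP replicates 1 and 3 (44.3 and 51.9) and in no Ezh2-Y726D list. Both calls against Ezh2-Y726D were kept at a −log10 q of at least 5. The other two were gained with Ezh2 against GFP and were low. At chr11:65740392-65740820 only the Ezh2 lists had a peak (19.3, 28.6 and 52.8). At chr11:65768059-65768672 both Ezh2 forms had one (44.4, 31.3 and 23.8 with Ezh2, 30.3 and 37.8 with Ezh2-Y726D) and GFP had none. Neither gain was kept at the stricter threshold.

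JNK1 and JNK2 were open at their first listed starts in all groups. Mapk8 lies on chr14:33377898-33447353, and its start region (chr14:33446482-33447691) had percentiles of 88.2, 86.5 and 84 in GFP, 85.8, 86.6 and 86.3 in Ezh2, with 85.5 and 87.2 in Ezh2-Y726D. Its differences from GFP were close to 0 (Ezh2 -0.0025, SE 0.12, and Ezh2-Y726D 0.0046, SE 0.13). Mapk9 lies on chr11:49846728-49886421, and its start region (chr11:49846069-49847834) had 88.8, 87.8 and 84.5 in GFP, 84.5, 87.9 and 84.2 in Ezh2, with 83.8 and 82.8 in Ezh2-Y726D. Ezh2 differed from GFP there by -0.07 (SE 0.12, adjusted p = 0.818). Ezh2-Y726D lay below every GFP library, with a difference of -0.17 (SE 0.14, adjusted p = 0.508) that was not called.

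The clearest presence call at Mapk9 was a region found with active Ezh2 alone. At chr11:49855250-49855556, inside the gene and 8.65 kb from its start, all Ezh2 lists had a peak, with percentiles of 64.1, 47.2 and 74.4 and folds over background of 5.86, 4.62 and 6.32. No GFP or Ezh2-Y726D list had one. The gain was kept under 3 stricter rules: peaks covering 0.5 or more of the region, a −log10 q of at least 5, and lists cut to equal length. At Mapk8, calls were weak. A region 8.09 kb upstream (chr14:33455062-33455436) had peaks in all GFP lists at percentiles of 12.9 to 17.8, in Ezh2 replicate 3 at 11.6 and in no Ezh2-Y726D list. Another inside the gene (chr14:33415578-33416152) had peaks in GFP replicate 3 (9.3) and in Ezh2-Y726D (20 and 37.8) but not in Ezh2.

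JNK3, the form of JNK found mainly in neurons, held the largest rank difference of the 48 tested regions. Mapk10 lies on chr5:102908547-103212604 and is read on the minus strand. Its start region (chr5:103210487-103211694), which holds the promoter with the cAMP response element printed above, had percentiles of 70.8, 78.5 and 63.1 in GFP, 54.8, 63.3 and 67.9 in Ezh2, with 60.2 and 53.4 in Ezh2-Y726D. Ezh2 and GFP overlapped, Ezh2-Y726D lay below GFP, and the differences of -0.25 (SE 0.16) and -0.39 (SE 0.18) from GFP were not called (adjusted p = 0.454 and 0.238). A second listed start of Mapk10, at 103058392, lay under no peak. Deep inside the gene lay the region chr5:102993932-102994558, 217 kb from the first start and 63834 bp from the second. It had percentiles of 57.5, 68.7 and 72.7 in GFP, 15.1, 25.2 and 23.8 in Ezh2, with 75.4 and 73 in Ezh2-Y726D. All Ezh2 libraries lay far below all others. Folds over background were 5.18, 6.44 and 6.42 in GFP, 3.42, 3.69 and 3.49 in Ezh2, with 7.29 and 6.82 in Ezh2-Y726D. The region ranked lower in Ezh2 than in GFP by -1.23 normal-score units (SE 0.16, adjusted p = 0.02) and lower than in Ezh2-Y726D by -1.45 (SE 0.18, adjusted p = 0.00345). Ezh2-Y726D differed from GFP by 0.22 (SE 0.18, adjusted p = 0.497).

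This decrease held in most alternatives. Against Ezh2-Y726D the call was made in all 14 alternatives in which the region was tested, with adjusted p from 0.0014 to 0.026. Against GFP it was lost without GFP replicate 2 (-1.20, adjusted p = 0.0679) and without Ezh2 replicate 1 (-1.12, adjusted p = 0.0516), and adjusted p over the 14 alternatives ran from 0.00656 to 0.0679. It was not tested under the coverage rule, the stricter threshold or equal list lengths, because it then lacked a peak in at least 1 list. Markers of microglia and macrophages had a peak for 6, 5 and 8 of 10 genes with GFP, 8, 7 and 8 with Ezh2 and 2 in each Ezh2-Y726D list. P2ry12 had none with Ezh2, whereas Csf1r had one with Ezh2 in every list and none elsewhere. Rod markers with a peak numbered 10 in each GFP list, 8, 9 and 8 with Ezh2, and 7 and 10 with Ezh2-Y726D. The part of any of these cells in the Mapk10 difference was not tested.

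A neighbouring region showed the same groups by presence. At chr5:102991620-102992361, peaks had percentiles of 61.2, 32 and 81.8 in GFP and 55.4 and 68.4 in Ezh2-Y726D, and no Ezh2 list had a peak. The loss in Ezh2 was kept under the coverage rule, the stricter threshold and equal list lengths. Between the 2 regions lay a short one with a peak in GFP replicate 3 alone, 1239 bp from the first and 131 bp from the second. Farther along, chr5:103054286-103054907, 3485 bp from the second listed start, also had peaks in GFP (8.6, 51.7 and 71.8) and Ezh2-Y726D (56.1 and 54) and none in Ezh2. Its loss against GFP was not kept under any of these 3 rules, whereas that against Ezh2-Y726D was kept under all. At chr5:103029073-103029773, which met no call because Ezh2 replicate 2 had no peak, percentiles were 44.3, 63.5 and 51.9 in GFP, 33.5 and 36.1 in the other Ezh2 lists, and 84.3 and 83.5 in Ezh2-Y726D. This region was singled out after its values were seen.

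Other parts of Mapk10 differed in other ways. At chr5:103133553-103134127, 77.5 kb from the first start, percentiles were 26.5, 28.7 and 29 in GFP, 49.2, 62.2 and 36.1 in Ezh2, with 19.4 and 18.6 in Ezh2-Y726D. Here the Ezh2 libraries were above all others. Ezh2 was higher than Ezh2-Y726D by 0.86 (SE 0.19, adjusted p = 0.0256), whereas the difference of 0.56 from GFP (SE 0.17, adjusted p = 0.128) was not called. The call was lost in 6 of 15 alternatives (adjusted p from 0.0174 to 0.111), among them those without Ezh2 replicate 1 (0.0624) or 2 (0.0516) and without Ezh2-Y726D replicate 1 (0.111) or 2 (0.11). Low peaks at chr5:103081803-103082297 were found with both Ezh2 forms (21, 12.9 and 41.5, and 17.4 and 44.7) and not with GFP. A region at chr5:103141941-103142660 was gained with Ezh2-Y726D against GFP (43 and 20.6), with peaks in Ezh2 replicates 1 and 3 (10 and 6.93). Another at chr5:103128928-103129549 had peaks in Ezh2-Y726D (15.6 and 37.8) and GFP replicates 1 and 3 (20 and 17.8) but not in Ezh2. No gain or loss at these low regions was kept at a −log10 q of at least 5. The Ezh2 gain at chr5:103081803-103082297 and the loss at chr5:103128928-103129549 also failed the coverage rule and equal list lengths. The gain at chr5:103141941-103142660 was also not kept with equal list lengths.

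**Figure D3:**
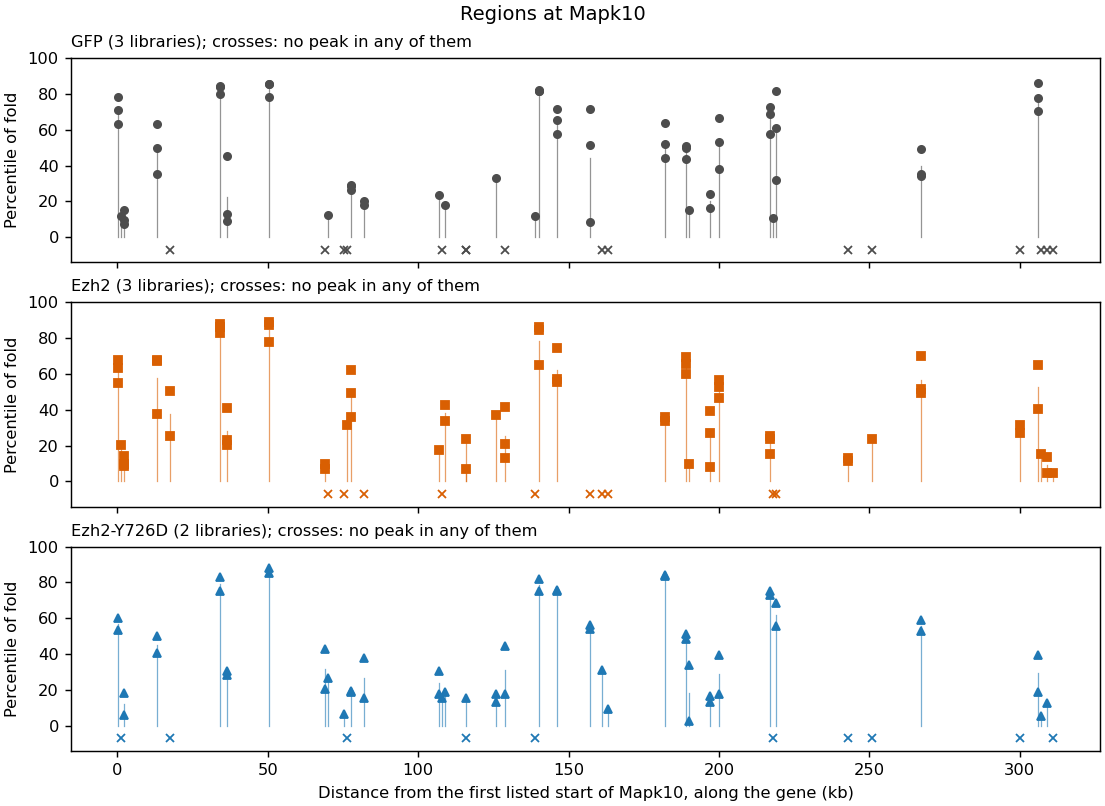
Percentile of fold within the list (y axis) of the 43 regions at Mapk10 against distance from its first listed start along the gene (x axis, kb), in 1 panel per group. Points are libraries with a peak, thin lines reach the mean of those libraries, and crosses below 0 mark regions with no peak in any library of the group. Near 217 to 219 kb, GFP and Ezh2-Y726D have tall regions where Ezh2 has 1 low region and no peak in its neighbour.

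**Figure D4:**
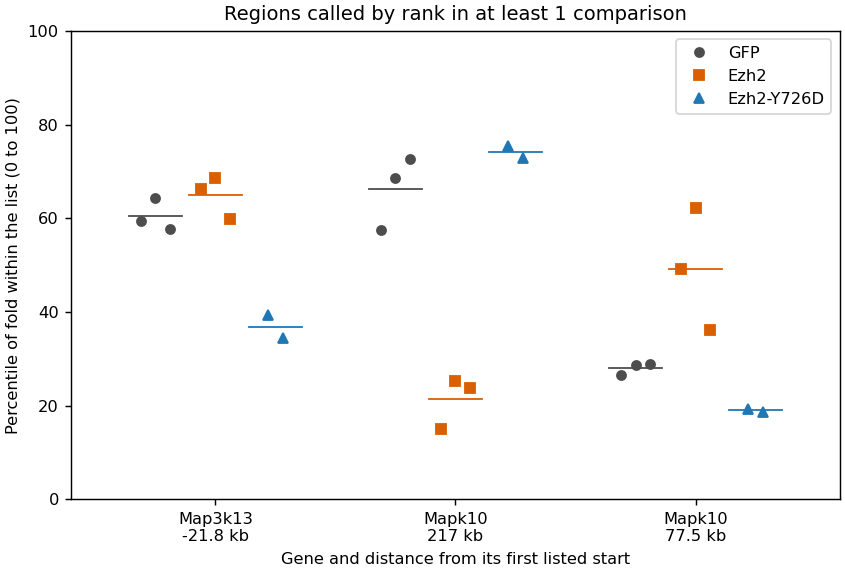
Percentile of fold within the list (y axis, 0 to 100) of the 3 regions called by limma in at least 1 comparison (x axis, gene and distance from the first listed start), 1 point per library and a line at each group mean. Ezh2 libraries lie lowest at the Mapk10 region 217 kb from the start (15.1 to 25.2), Ezh2-Y726D libraries lie lowest at Map3k13 (39.4 and 34.4), and Ezh2 libraries lie highest at the Mapk10 region 77.5 kb from the start (36.1 to 62.2).

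Sarm1 was the gene whose start moved most with Ezh2, though below the threshold of the test. It lies on chr11:78470273-78497816, and its start region (chr11:78496866-78498397) had percentiles of 78.4, 78.8 and 81.9 in GFP, 88.3, 92.4 and 91.5 in Ezh2, with 88.1 and 84.4 in Ezh2-Y726D. All 5 libraries with an Ezh2 form were above all 3 GFP libraries. Over all tested regions, Ezh2 separated from GFP at 24.2% and Ezh2-Y726D from GFP at 41.5%. The share at which both did so was not counted. Ezh2 differed from GFP by 0.50 (SE 0.13, unadjusted p = 0.00397, adjusted p = 0.0838, with 0.0728 to 0.301 over 17 alternatives), and Ezh2-Y726D differed by 0.26 (SE 0.14, adjusted p = 0.305). The 2 forms differed by 0.23 (SE 0.14, adjusted p = 0.323). A weak region 7.26 kb upstream (chr11:78504691-78505333) had peaks in every GFP list (5.85, 23.4 and 8.83) and Ezh2 list (16.7, 33.1 and 27.3) and none with Ezh2-Y726D, and this loss was not kept under any of the 3 stricter rules.

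The stress factors were open in every library and differed in height from each other. Atf4, which lies on chr15:80255184-80257545, had start percentiles of 76.1, 76.6 and 74.6 in GFP, 79.3, 83.9 and 80.9 in Ezh2, with 82.9 and 75.8 in Ezh2-Y726D (chr15:80254510-80256302). The Ezh2 libraries were above the GFP libraries by 0.19 normal-score units (SE 0.13, adjusted p = 0.454), which was not called. Ddit3, on chr10:127290793-127296291, had 56.2, 58.8 and 56.9 in GFP, 54.8, 57.4 and 53.2 in Ezh2, with 63.9 and 53 in Ezh2-Y726D (chr10:127288386-127291425). Its start region is shared with the gene Mbd6 and holds the promoter with the AP-1 motif printed above. The groups overlapped, with a difference of -0.05 between Ezh2 and GFP (SE 0.13, adjusted p = 0.866). Beyond the other end of Ddit3, inside the neighbouring gene Mars1, chr10:127300680-127301131 had a peak with active Ezh2 alone (57.4, 51.5 and 69.8). That gain was kept under all 3 stricter rules.

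**Figure D5:**
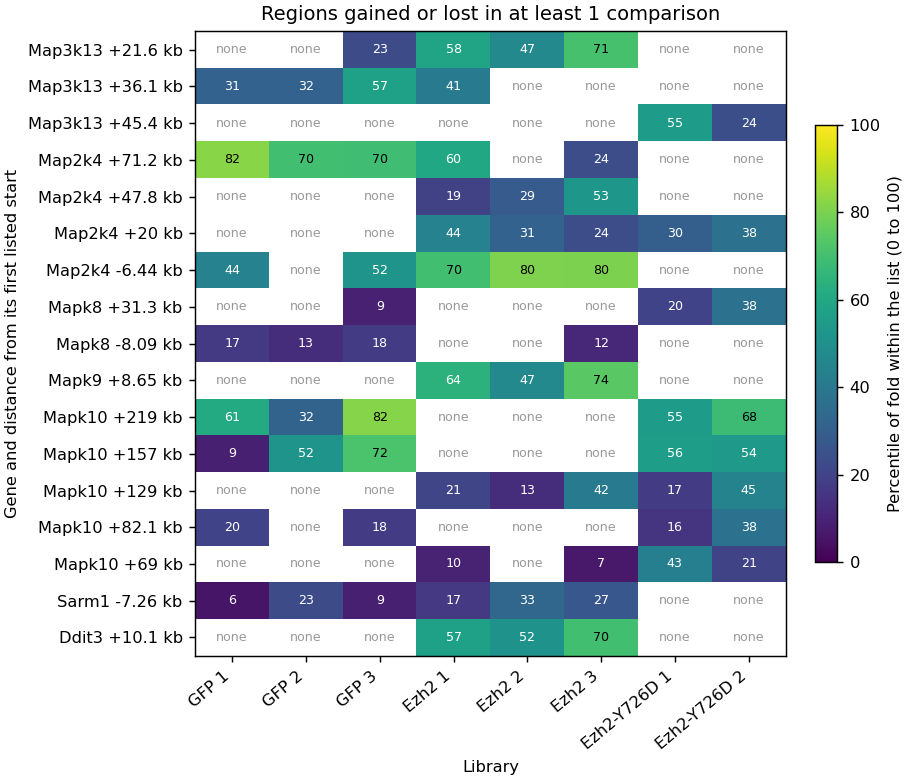
Percentile of fold within the list (colour and number, 0 to 100) in each of the 8 libraries (columns) for the regions gained or lost in at least 1 comparison (rows, gene and distance from its first listed start), with "none" where a list has no peak. Mapk9 at 8.65 kb and Ddit3 at 10.1 kb are filled only in the 3 Ezh2 columns, and Mapk10 at 219 and 157 kb is empty only there.

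Other genes of the same pathways were described from lists by the number of their regions. Of 102 tested regions of 16 upstream and scaffold genes of the JNK cascade, 1 ranked higher and 1 lower with Ezh2 against GFP, beside the 0.735% and 1.38% of all regions given above. The numbers were 3 and 5 for Ezh2-Y726D against GFP (all regions 2.45% and 3.77%), and 9 and 6 for Ezh2 against Ezh2-Y726D (6.25% and 5.62%). These shares are the background for each list below. Median differences of this list were -0.01, -0.05 and 0.04, beside 0.03, 0.02 and 0.01 over all regions. Both calls against GFP with active Ezh2 lay inside Map3k5 (ASK1, a stress-activated kinase) and went in opposite directions. At chr10:19969634-19970379 Ezh2 had 11.7, 11.6 and 14.3 against 59.1, 50.2 and 54 in GFP (-1.26, SE 0.14, adjusted p = 0.0162), a call lost in 1 of 15 alternatives, that without GFP replicate 2 (adjusted p = 0.0609, lowest 0.00505). At chr10:19991178-19992664 it had 77.4, 81 and 85 against 42.7, 38.4 and 57.3 (0.99, SE 0.16, adjusted p = 0.0305). That call was lost in 8 of 16 alternatives (adjusted p from 0.00947 to 0.0903), among them the omission of GFP replicate 1 or 2, of any Ezh2 library or of Ezh2-Y726D replicate 2. Map3k1 (MEKK1) ranked lower with Ezh2-Y726D at chr13:111796328-111798590, with 10.7 and 6.7 against 46.2, 49.5 and 30.5 in GFP (-1.17, SE 0.18, adjusted p = 0.0136). Of 16 alternatives it was lost in 1, without Ezh2-Y726D replicate 2 (adjusted p = 0.0646, lowest 0.0131).

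The JNK phosphatases Dusp1, Dusp4, Dusp8, Dusp10 and Dusp16, which switch JNK off, held 26 tested regions. Of these, 1 ranked higher and 2 lower with Ezh2 against GFP, and 3 ranked higher and 3 lower with Ezh2 against Ezh2-Y726D. In Ezh2-Y726D against GFP 2 ranked lower and 0 higher, with 3 lower and 1 higher at an unadjusted p under 0.05 (23.5% of all regions). In Dusp16, the groups stood apart at chr6:134764328-134765049, with 24.8, 44.7 and 35.8 in GFP, 61.7, 64.3 and 59.8 in Ezh2, with 5.06 and 11 in Ezh2-Y726D. Ezh2 exceeded Ezh2-Y726D there by 1.74 (SE 0.20, adjusted p = 0.00284), a call kept in all 14 alternatives in which it was tested (adjusted p from 0.0018 to 0.0204). Ezh2-Y726D was lower than GFP by -1.04 (SE 0.20, adjusted p = 0.0232), a call lost in 4 of 14 alternatives (0.0148 to 0.135), among them those without GFP replicate 2 (0.0564) or Ezh2-Y726D replicate 1 (0.135). Dusp10 ranked lower in Ezh2 than in GFP at chr1:184054240-184055033, with 3.13, 3.89 and 1.29 against 37.1, 17.4 and 30.4 (-1.36, SE 0.20, adjusted p = 0.0257). It was lost in 7 of 14 alternatives (adjusted p from 0.0142 to 0.069), including without any 1 of the GFP libraries or without Ezh2 replicate 1 or 3.

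Among 6 transcription factor genes downstream of DLK and JNK (Jun, Atf2, Atf3, Mef2a, Sox11 and Elk1), 14 regions were tested. Calls were limited to 2 regions of Mef2a that ranked higher in Ezh2 than in Ezh2-Y726D (0.82, SE 0.19, adjusted p = 0.0314, and 0.70, SE 0.18, adjusted p = 0.0394). These calls were lost in 6 of 17 alternatives (adjusted p from 0.0138 to 0.146) and in 9 of 16 (0.0261 to 0.156), in both cases without Ezh2 replicate 2 or 3 or either Ezh2-Y726D library, and the second also without GFP replicate 3 or Ezh2 replicate 1. Against GFP, limma called 0 with either form. At an unadjusted p under 0.05 there were 0 for Ezh2 and 3 for Ezh2-Y726D, all lower, beside 19.1% and 23.5% of all regions. The NAD and axon degeneration genes around Sarm1 (Nmnat1, Nmnat2, Nmnat3, Nampt and Stmn2) had 32 tested regions, of which limma called 0 in Ezh2 against GFP, 1 lower and 0 higher in Ezh2-Y726D against GFP, and 1 higher and 2 lower in Ezh2 against Ezh2-Y726D. At an unadjusted p under 0.05, 3 were higher and 2 lower in the first of these comparisons and 4 higher and 3 lower in the second, beside the same shares of all regions. In Nmnat3, which encodes an enzyme that makes NAD, chr9:98363984-98364505 ranked lower with Ezh2-Y726D, at 1.82 and 5.49 against 22.9, 33.1 and 40.7 in GFP (-1.37, SE 0.22, adjusted p = 0.015). Of 15 alternatives this call was lost in 1, without Ezh2-Y726D replicate 1 (adjusted p = 0.0869, lowest 0.0125).

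Of 48 tested regions at 19 genes of the integrated and unfolded protein stress responses, 0 ranked higher in Ezh2 than in GFP and 1 ranked lower. At an unadjusted p under 0.05, 1 was higher and 4 were lower, beside 19.1% of all regions. The called region lay near Cebpg, a partner of Atf4 (chr7:35041279-35042292), with 5.33, 1.85 and 7.96 in Ezh2 against 24.4, 31.5 and 21.9 in GFP (-1.05, SE 0.19, adjusted p = 0.036). The call was lost in 11 of 14 alternatives (adjusted p from 0.0296 to 0.106), including the omission of any of the 8 libraries. In Ezh2-Y726D against GFP 1 ranked higher and 1 lower, and between Ezh2 and Ezh2-Y726D 2 ranked higher and 5 lower. One of those lower was inside Eif2ak3 (PERK, the stress kinase of the endoplasmic reticulum) at chr6:70899503-70900120, with 33.5, 25.2 and 17.5 in Ezh2 against 76.3 and 80.4 in Ezh2-Y726D (-1.46, SE 0.27, adjusted p = 0.0138). Of 14 alternatives it was lost in 2, without Ezh2-Y726D replicate 1 (adjusted p = 0.066) or 2 (0.0762, lowest of all 0.00607). Ern1 (IRE1), a sensor of unfolded protein, held calls in both directions. At chr11:106415953-106416941 Ezh2-Y726D had 20.6 and 11.2 against 65.2, 39.2 and 68 in GFP (-1.21, SE 0.24, adjusted p = 0.0274), and at chr11:106418456-106419192 it had 95.7 and 97.4 against 82.1, 82.2 and 78.9 (0.94, SE 0.20, adjusted p = 0.0345). The first was lost in 6 of 14 alternatives (adjusted p from 0.0122 to 0.137), among them without GFP replicate 1 or 3 or either Ezh2-Y726D library. The second was lost in 10 of 17 (0.0252 to 0.232), among them without any 1 of the GFP libraries, Ezh2 replicate 1 or either Ezh2-Y726D library.

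Presence was counted for the same lists. With Ezh2 against GFP, gained and lost regions numbered 15 and 0 of 296 regions at the upstream and scaffold genes, 3 and 0 of 40 at the downstream transcription factors, 3 and 1 of 81 at the NAD and axon degeneration genes, and 5 and 0 of 106 at the stress response genes, but 0 and 3 of 53 at the phosphatases. The shares over all regions were 2.72% gained and 1.68% lost. With Ezh2-Y726D against GFP they numbered 14 and 9, 1 and 2, 5 and 5, 2 and 6, and 3 and 3 in the same order, beside 4.77% and 4.72% of all regions. Between Ezh2 and Ezh2-Y726D they numbered 31 and 12, 4 and 2, 8 and 3, 14 and 1, and 2 and 3, beside 8.96% and 6.14%. No test was made on these counts. All Ezh2 and Ezh2-Y726D lists held more peaks than GFP replicates 1 and 2. GFP replicate 3 (133674) held more than Ezh2 replicates 1 and 2 (126271 and 127547) and both Ezh2-Y726D lists (124666 and 128728). It held fewer than Ezh2 replicate 3 (135895). The part of list length in these counts was not tested.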

How the data were processed

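Open chromatin was measured by ATAC-seq in 8 libraries of sorted mouse RGCs, grouped by their titles. Per the labels, reads were processed with cutadapt, Bowtie2, SAMtools, Picard, MACS2 and deepTools on GRCm38 (submitters' processing notes, versions not given in the sources used here), and the authors called peaks in each library separately. Peaks were ranked by the deposited fold, a ratio of pileup over local background within 1 library. The deposited −log10 p-values and −log10 q-values served as an alternative ranking and as a filter. The deposited score was not used. Depth is unknown, so heights were compared as percentiles within a list. How many peaks a list holds, and which regions pass into it, depends on depth and on the caller.

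Gene positions, starts and promoters came from RefSeq (GRCm38.p6). All 10 symbols matched. Exons were not used here, so regions are placed inside or outside a gene. Peaks sharing 1 bp were merged with Python 3.11.15 and pandas 2.3.3. Where a list had several peaks in a region, the highest percentile was taken. Normal scores of regions with a peak in all 8 lists were compared with limma 3.58.1 in R 4.3.3 (lmFit and eBayes, all libraries in 1 fit, Benjamini-Hochberg adjustment over all 69493 regions). Peak numbers were compared by two-sided exact permutation tests. The steps were tested on simulated data. The members, lists and motifs were chosen with earlier results of these data known. All 10 genes are named, with their start regions and every region called by rank, gained or lost. Genes of the other lists are named where a region was called, up to 5 for a list and comparison by size, and not every such gene is named. Alternatives changed the ranking column, percentile base, peak threshold, list length, coverage, flank, blocks and libraries.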

Additional observations from a re-analysis of the deposited data

How the results depend on the processing

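Of 113 alternative values for the counts of called regions and of peaks, 82 kept their direction and lay within 1.5 times the reported count or within the spread between libraries, 28 moved and 3 changed sign. In Ezh2 against GFP the 1 region called by rank became 0 under the coverage rule (peaks over 0.5 or more of a region), at a −log10 q of at least 5 and with lists of equal length, and ran from 0 to 1 when 1 library was left out. In Ezh2-Y726D against GFP the number of calls was 2 when peaks were ranked by −log10 p or regions in at least 5 lists were used. It was 0 with percentiles among shared regions, only the 2 groups, the replicate block or the coverage rule, and 0 to 1 over omitted libraries. With regions in at least 5 lists, limma did not call the Map3k13 region reported above (adjusted p = 0.0781). Nor was it called when any 1 library was left out, so the calls counted in these settings are of other regions. Between Ezh2 and Ezh2-Y726D the 3 calls became 5 with regions in at least 5 lists, 0 under the coverage rule and 1 at the stricter threshold, with 1 to 3 over omitted libraries. Gained and lost regions together numbered 7 (7 to 11 over omitted libraries, 11 without Ezh2 replicate 3), 8 (9 to 18, with 14 without Ezh2-Y726D replicate 1 or GFP replicate 3 and 18 without Ezh2-Y726D replicate 2) and 11 (12 to 17, with 17 without Ezh2-Y726D replicate 2) in the 3 comparisons. Fewer libraries make that rule easier to meet. Within gene bodies alone they were 5 for Ezh2-Y726D against GFP and 7 between Ezh2 and Ezh2-Y726D, and at the stricter threshold 4 for Ezh2-Y726D against GFP. The excess of peaks changed sign to -0.5 for Ezh2-Y726D against GFP at the stricter threshold, and between Ezh2 and Ezh2-Y726D to -0.667 with equal lists and -0.552 per 100000 peaks. Where no construction explains a change, the cause was not tested.

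Deviations from the group means were correlated between libraries of different groups with the same number in their titles (from -0.0104 to 0.0538). Peak names of Ezh2-Y726D replicates 1 and 2 carry the numbers 2 and 3, unlike their titles. By the numbers in the peak names, the correlations ran from 0.00125 to 0.0538. With 2 or 3 libraries in a group, these values cannot show whether the numbers mark a pairing. With the replicate block, limma called 1, 0 and 3 member regions in the 3 comparisons, and with a block by the numbers in the peak names 1, 1 and 2. In the latter, the region called for Ezh2-Y726D against GFP was not the Map3k13 region reported above, whose adjusted p was 0.0806. For start regions and called regions of the 10 genes, 604 alternative values kept their side of the threshold and 23 lost the call, all at Mapk10 and Map3k13. For the regions of the other lists called by rank, 490 kept the call and 326 lost it, none with a change of sign. Depth is unknown and bounds all presence calls: a missing peak means only that none passed the caller.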
